A study of Mus musculus with 12 samples.

Results

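Alternative exon ends are internal exons that occur in more than 1 version because the splicing machinery can join them at more than 1 site. A change at the upstream end of the exon moves the acceptor site, and a change at the downstream end moves the donor site. The shorter version loses the segment between both sites, which in coding exons adds or removes amino acids or shifts the reading frame. In frameshifted messages a premature stop codon often leads to nonsense-mediated decay, the pathway that destroys such RNA. Acceptor sites end in the bases AG of the intron, and donor sites mostly begin with GT.

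The events were all rows marked as alternative exon ends in the authors' event table of mouse colon RNA, 17169 of its 187383 rows. They covered 14020 of 74659 transcripts and 3509 of 22377 genes. Rows of the same gene whose exons overlapped formed a group, and each distinct exon in a group is called a form. This gave 4494 groups with 9461 forms, out of 38627 groups over all event families. Of these groups, 4124 held 2 forms and 370 held between 3 and 8. The use of a form is the FPKM of its transcripts (fragments scaled for transcript length and library total) as a percent of the group's FPKM in that library. Because FPKM belongs to whole transcripts, the use of a form also carries any other way in which its transcripts differ, such as another start or a retained intron.

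Poly(A) RNA of colon was sequenced in 12 libraries, 4 labelled control, 4 labelled DSS and 4 labelled FGF1. DSS is dextran sulfate sodium, a polymer that injures the colon lining of mice, and FGF1 is fibroblast growth factor 1. The design text speaks of recombinant FGF1 given to mice with bowel disease, but from the labels it is not known if the samples labelled FGF1 had DSS too, and they give no dose, duration, strain, age or genotype. The labels do not state that the samples are separate animals, so p-values measure only the spread between these samples.

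All 14 markers of colon epithelium were listed, with a summed FPKM of 8327 to 16883 in the control libraries, 12814 to 20214 in DSS and 9740 to 16564 in FGF1. The summed FPKM of 12 fibroblast markers was 307 to 431 in control, 18.7 to 112 in DSS and 92.9 to 263 in FGF1. That of 8 T and NK cell markers overlapped between the groups, with medians of 11.6, 11.4 and 7.82. Between 17.3% and 18.4% of each library's FPKM came from transcripts with an alternative exon end. The number of alternative exon end rows listed ranged from 8435 (DSS 3) to 10782 (control 3). FPKM values hold no read counts, so the depth behind each value is unknown.

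Most pairs of forms differed at the acceptor. Among the 4124 pairs, 2568 (62.3%) changed the acceptor, 1537 (37.3%) the donor and 19 both ends. The difference in length ran from 10 to 3743 bases with a median of 53.0 bases over the 4105 pairs with 1 changed end. No pair differed by under 10 bases. Why the pairs begin at 10 bases was not tested, so they cannot show how common closer sites are in colon. Closer sites stood only in the 370 larger groups, of which 130 held forms that shared 1 end and lay under 10 bases apart at the other, in 53 cases 3 bases apart.

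Where the extra segment of the longer form lay wholly in coding sequence, its length was often a multiple of 3, which keeps the reading frame. This held for 1187 of 2316 coding pairs (51.3%) and for 538 of the 1789 other pairs (30.1%). Among these pairs, all of which differ by at least 10 bases, the most frequent differences were 12 and 15 bases, with 113 pairs each. Then followed 18 bases with 100 pairs and 21 bases with 97 pairs. The plot of length differences shows the multiples of 3 standing above their neighbours in coding segments and not in the others.

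**Figure D1:**
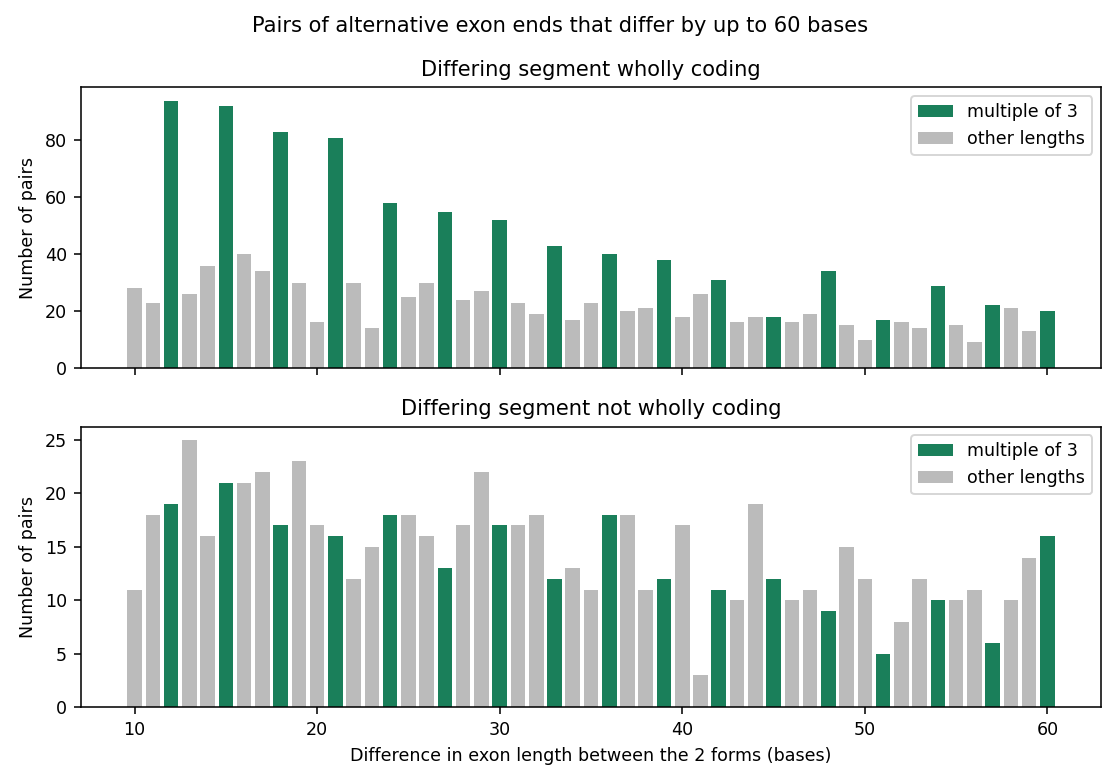
Number of pairs (vertical axis) by the difference in exon length in bases (horizontal axis), for differences of up to 60 bases; the upper panel holds segments that are wholly coding and the lower panel all others, and green bars are multiples of 3. Over all lengths, multiples of 3 made up 51.3% of coding pairs and 30.1% of the others.

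The annotated type of the transcripts went with the reading frame. When both forms occurred in a protein-coding transcript, 1238 of 1786 pairs (69.3%) differed by a multiple of 3. When the shorter form occurred in transcripts annotated for nonsense-mediated decay and the longer form in protein-coding ones, 42 of 478 (8.79%) did. In the opposite arrangement, with the longer form in the decay transcript, 157 of 728 (21.6%) did. The reading frame is part of how such transcripts are annotated, so these shares describe the annotation.

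The coding form was mostly the abundant form. Use was read in the 1422 pairs that passed the filter on low values (a group total of at least 1 FPKM in all 12 libraries and a mean use of 5% to 95%). Where the shorter form was the decay form, the longer form had a median use of 84.3% and was the major form in 158 of 168 pairs (94.0%). Where the longer form was the decay form, its median use was 15.8% and it was the major form in 27 of 240 pairs (11.2%). Where both forms were protein-coding, the median use of the longer form was 53.0% over 707 pairs. These medians passed through the filter on use, which removes forms that are almost never or almost always used.

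The position of the segment went with use as well. A longer form whose extra segment was wholly coding had a median use of 67.9%. This median was 20.4% for partly coding segments (183 pairs) and 36.8% for segments in the 5′ untranslated region (113 pairs). It was 13.4% in the 3′ untranslated region (32 pairs) and 22.9% in transcripts without coding sequence (219 pairs). For coding segments it was 68.9% in control, 67.4% in DSS and 69.1% in FGF1.

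The site used by the shorter form lies inside the longer exon, so its bases can be read from the longer transcript. In acceptor pairs the segment ended in AG in 2548 of 2557 pairs (99.6%), against a share of AG of 7.94% among all dinucleotides of the longer exons. In donor pairs it began with GT in 1466 of 1529 pairs (95.9%, against 5.37%) and with GC in 55 (3.60%, against 6.22%). Exon ends and bases were both read from annotated transcripts, so these shares too describe the annotation. The following messenger sequences are shown because their genes return in the results and because they display both kinds of site. They are from GENCODE vM21 transcripts (GRCm38), 5′ to 3′ on the strand of the gene, with the extra segment of the longer form in capitals and 12 bases on each side in lower case. All segments shown are annotated as coding.
Lsp1, acceptor, chr7:142488848-142488865, plus strand: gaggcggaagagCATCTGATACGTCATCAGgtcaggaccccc
Stk16, acceptor, chr1:75213113-75213132, plus strand: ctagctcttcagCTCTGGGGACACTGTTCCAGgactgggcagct
Wdr45, acceptor, chrX:7727170-7727211, plus strand: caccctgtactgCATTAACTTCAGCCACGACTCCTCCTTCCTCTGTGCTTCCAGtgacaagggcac
Cop1, acceptor, chr1:159319724-159319747, plus strand: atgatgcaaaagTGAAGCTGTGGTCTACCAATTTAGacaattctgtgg
Il17rc, acceptor, chr6:113476399-113476425, plus strand: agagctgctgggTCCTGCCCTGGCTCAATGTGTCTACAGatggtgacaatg
Rpsa, acceptor, chr9:120130045-120130117, plus strand: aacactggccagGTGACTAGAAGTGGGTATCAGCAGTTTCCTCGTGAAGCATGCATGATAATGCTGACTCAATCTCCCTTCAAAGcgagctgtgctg
Myl6, acceptor, chr10:128492710-128492745, minus strand: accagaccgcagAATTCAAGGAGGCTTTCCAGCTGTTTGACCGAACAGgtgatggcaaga
Rbm39, acceptor, chr2:156154272-156154289, minus strand: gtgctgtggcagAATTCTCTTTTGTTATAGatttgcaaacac
Copa, acceptor, chr1:172110650-172110676, plus strand: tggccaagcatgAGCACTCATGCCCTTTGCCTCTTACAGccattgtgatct
Gsto1, donor, chr19:47859531-47859555, plus strand: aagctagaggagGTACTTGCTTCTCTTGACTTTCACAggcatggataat
Hnrnpc, donor, chr14:52081789-52081827, minus strand: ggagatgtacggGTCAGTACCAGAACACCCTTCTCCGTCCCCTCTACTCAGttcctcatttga
In each acceptor sequence the lower-case start is the end of the exon before, and the capitals end in the AG at which the shorter form begins. In the Gsto1 and Hnrnpc sequences the capitals begin with the GT at which the shorter form ends. The segments of Lsp1, Wdr45, Cop1, Il17rc, Myl6, Rbm39, Copa and Hnrnpc (18, 42, 24, 27, 36, 18, 27 and 39 bases) keep the reading frame, whereas those of Stk16 (20), Rpsa (73) and Gsto1 (25) do not.

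Between groups, no form passed the test. The 2004 tested forms came from 1656 groups of 1431 genes: 1422 pairs tested by their longer form, and 582 forms of larger groups. With limma and Benjamini-Hochberg adjustment over all 31057 forms of all event families, 0 forms had an adjusted p under 0.05 in DSS against control, in FGF1 against DSS and in FGF1 against control, and 0% were called over all event families too. The smallest adjusted p was 0.0887, 0.471 and 0.157, respectively (limma, Benjamini-Hochberg). All values below are therefore descriptions of forms that were not called. Looser filters on low values gave calls in DSS against control, 26 of 4902 forms (0.53%) with no filter and 6 of 2569 (0.234%) with 1 FPKM in at least 4 libraries, beside 0.552% and 0.15% over all event families.

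At an unadjusted limma p under 0.05 the counts were near those of the whole table. They were 143 forms (7.14%) in DSS against control, beside 8.3% over all event families. In FGF1 against DSS they were 122 (6.09%), beside 6.17%, and in FGF1 against control 117 (5.84%), beside 5.16%. The ranges of use in both groups were separate for 67 forms (3.34%, all families 4.46%), 70 forms (3.49%, 3.54%) and 61 forms (3.04%, 2.97%). Of the 143, 76 had the higher ratio in DSS and 67 in control.

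Mean use still differed by 10 points or more in many forms. This was so for 586 of 2004 forms in DSS against control, 598 in FGF1 against DSS and 527 in FGF1 against control, with median absolute differences of 5.70, 5.54 and 4.77 points. The median SD within a group was 7.97 points in control, 9.30 in DSS and 8.57 in FGF1. A form's 4 libraries spanned 50 points or more in 284 forms in control, 373 in DSS and 338 in FGF1, and in at least 1 group for 615 forms.

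**Figure D2:**
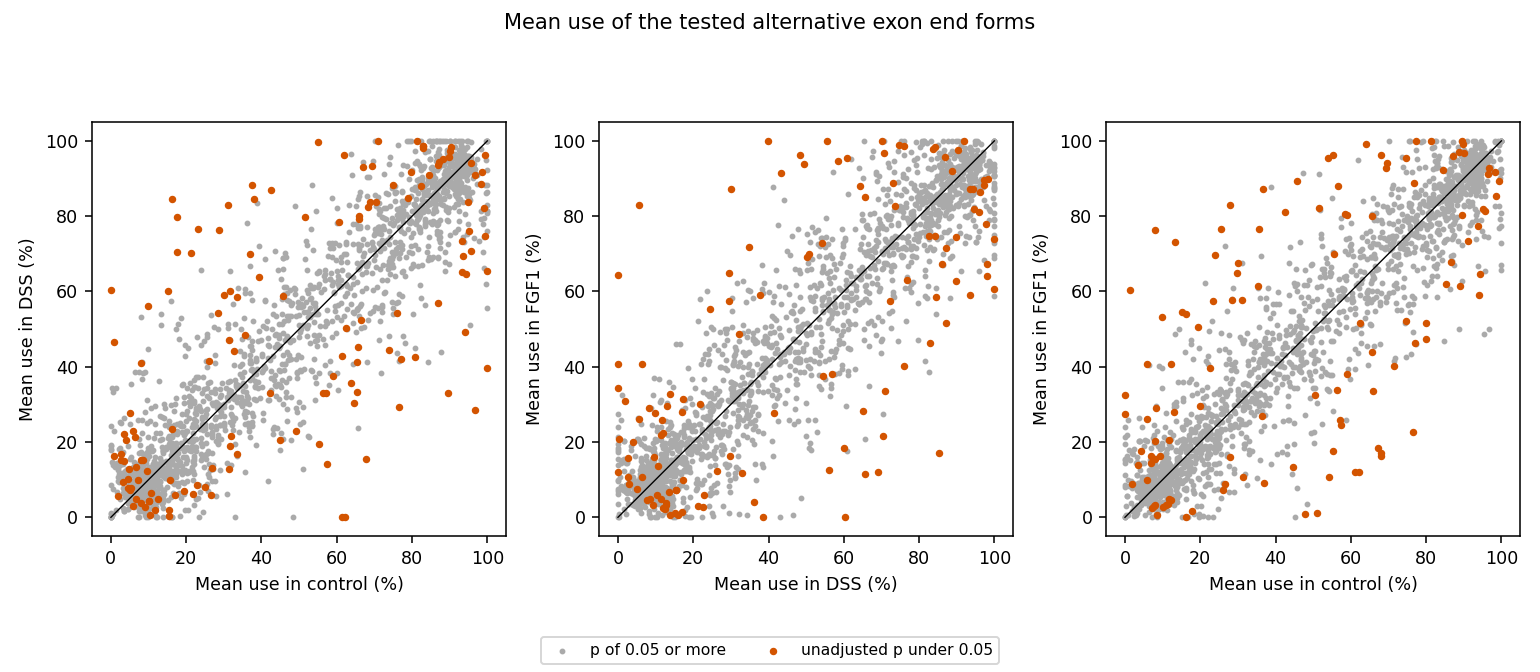
Mean use (%) of the 2004 tested forms in DSS against control, FGF1 against DSS and FGF1 against control; each point is 1 form, the line marks equal use, and orange points have an unadjusted limma p under 0.05 (143, 122 and 117 forms). Most points lie along the line, and none passed the adjusted test.

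The forms named next are those with the smallest p, at most 10 genes in each comparison. Their log2 ratios compare the form with the rest of its group, with 1 FPKM added to each. Values are given in the order of libraries 1 to 4, and errors of mean use are SDs over 4 libraries.

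Srp19, which encodes a subunit of the signal recognition particle that guides secretory proteins to the endoplasmic reticulum, had the smallest p in DSS against control. Its protein-coding transcript with a 76-base exon took 62.9%, 56.8%, 71.9% and 56.8% of the group in control, was listed at 0 in all 4 DSS libraries, and took 0%, 0%, 21.6% and 26.6% in FGF1. The group total was 14.2 ± 4.1 FPKM in control, 9.6 ± 1.7 in DSS and 8.9 ± 1.6 in FGF1. DSS and FGF1 both lay below control in every library. The group is a chain rather than a single exon: a retained intron of 2615 bases joins the 76-base exon to the next one of 72 bases.

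The log2 ratio of this Srp19 form was −4.03 ± 0.47 (SE) in DSS against control, with a limma adjusted p of 0.0887, and −2.88 ± 0.47 in FGF1 against control, with 0.157. Over 27 alternatives the first of these had adjusted p-values from 0.00150 to 0.629, under 0.05 in 12 of them. Leaving out control 3, control 4, DSS 1, FGF1 1, FGF1 3 or FGF1 4 alone put it under 0.05. FPKM of 0 can mean absence or a transcript that was not assembled, which these values cannot tell apart.

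Ccnl2 is a cyclin that takes part in splicing, and its group holds a protein-coding transcript and a transcript with a retained intron. The protein-coding form had a mean of 32.9 FPKM in control, 4.1 in DSS and 25.6 in FGF1. The form with the retained intron, which has the longer exon, had 14.5, 16.5 and 21.7 FPKM. The longer exon of 1890 bases had a use of 26.8%, 47.5%, 27.9% and 22.6% in control, 83.0%, 94.9%, 72.4% and 81.2% in DSS, and 40.1%, 69.1%, 46.8% and 29.2% in FGF1. DSS did not overlap with either other group. Its group total was 47.4 ± 6.7 FPKM in control, 20.6 ± 16.4 in DSS and 47.3 ± 3.6 in FGF1. The log2 ratio was 3.12 ± 0.57 in DSS against control (limma adjusted p = 0.175), but −0.32 when the form was set against all other listed transcripts of Ccnl2, so its direction depended on the denominator.

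Lsp1 encodes an actin-binding protein of leukocytes, and its pair differs by the 18 bases shown above. The longer form had a use of 77.3%, 72.9%, 75.7% and 77.7% in control, 60.6%, 50.3%, 48.4% and 57.2% in DSS, and 78.1%, 70.4%, 74.7% and 67.8% in FGF1. All DSS libraries lay below all others. The log2 ratio was −1.21 ± 0.23 in DSS against control (limma adjusted p = 0.178) and 1.00 ± 0.23 in FGF1 against DSS (0.477). Against all other listed Lsp1 transcripts they were −0.24 and 0.12.

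The group total of Lsp1 was 13.4 ± 6.3 FPKM in control, 4.0 ± 1.9 in DSS and 11 ± 5.3 in FGF1. The summed FPKM of 9 macrophage markers was 99 to 151 in control, 30.4 to 71.2 in DSS and 47.9 to 123 in FGF1, and that of 8 B and plasma cell markers 821 to 2374, 49.2 to 113 and 128 to 503. Neutrophil markers (8) summed to 1.21 to 4.48 in control, 2.48 to 139 in DSS and 4.27 to 16.2 in FGF1, and T and NK cell markers to 4.26 to 15.0, 3.97 to 16.0 and 5.08 to 19.0. The part of these cell types in the use of Lsp1 was not tested. In bulk tissue, fewer cells of a type and less RNA per cell cannot be told apart.

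H2-Eb1 encodes a chain of MHC class II, which presents antigen on B cells and macrophages, so the same marker values stand beside it. Its longer exon, by 127 bases, had a use of 11.6%, 3.2%, 6.5% and 4.4% in control, 19.7%, 18.6%, 31.1% and 16.1% in DSS, and 0%, 0.6%, 11% and 0% in FGF1. DSS lay above both other groups in every library. Its log2 ratio was 1.70 ± 0.45 in DSS against control (limma adjusted p = 0.334). H2 genes have near-identical relatives, and reads can be split among them.

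Stk16, a kinase of the Golgi, carries the 20-base segment shown above in a decay transcript. That form had a use of 7.9%, 10.6%, 4.4% and 0% in control, 34.3%, 11.8%, 16.2% and 29.4% in DSS, and 10.8%, 4.5%, 0.4% and 8.5% in FGF1. All DSS libraries lay above all others, DSS 2 only narrowly. The log2 ratio was 1.33 ± 0.35 in DSS against control (limma adjusted p = 0.342) and −1.13 ± 0.35 in FGF1 against DSS (0.639). The first of these was 0.81 with the mean log2 level of smooth muscle markers as a model term and 0.56 with the values of the event rows.

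Rnpepl1, an aminopeptidase-like gene, and Dclre1a, a nuclease of DNA cross-link repair, had the longer form higher in DSS than in control without overlap. For Rnpepl1 (exon of 231 bases) the use was 13.4%, 20.5%, 9.9% and 21.1% in control, 85.2%, 78.9%, 91.6% and 82.2% in DSS, and 31.7%, 77.7%, 19.2% and 87.2% in FGF1. FGF1 spanned the range between both other groups. The group total was 23.0 ± 4.8 FPKM in control, 8.6 ± 3.4 in DSS and 15.9 ± 6.7 in FGF1. A 166-base form annotated as a retained intron had means of 15.7, 1.2 and 8.3 FPKM, and the longer form 3.6, 7.4 and 7.6. The log2 ratio in DSS against control was 3.99 ± 0.77 (limma adjusted p = 0.185), 1.61 against all other listed Rnpepl1 transcripts and 2.53 with the mean log2 level of smooth muscle markers in the model. For Dclre1a (739 bases longer) the mean use was 42.4% ± 22.8 in control, 87.1% ± 7.8 in DSS and 81.1% ± 12.9 in FGF1. Its group total was low, 2.3 ± 0.1 FPKM in control, 2.4 ± 0.4 in DSS and 2.3 ± 0.1 in FGF1. Its log2 ratio in DSS against control was 1.49 ± 0.35 (limma adjusted p = 0.276).

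Pyroxd2, a putative oxidoreductase, showed 3 DSS libraries apart from the fourth. The 112-base form had a use of 61.6%, 81.4%, 98.0% and 0% in DSS and at most 0.5% in each control and FGF1 library. The group total was low, 2.8 ± 0.9 FPKM in DSS. Its log2 ratio in DSS against control was 2.32 ± 0.60 with a limma adjusted p of 0.321, which became 0.00198 without DSS 4. Over its 26 alternatives the adjusted p ran from 0.00198 to 0.648.

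Clip1, a protein of growing microtubule ends, and Wdr13, a WD-repeat protein, had their longer form lower on average in DSS and FGF1 than in control. Clip1 (228 bases longer at the donor) had a mean use of 77.1% ± 11.5 in the control libraries, 42.0% ± 20.6 in DSS and 46.3% ± 12.4 in FGF1. Wdr13 (exon of 493 bases) had 76.4% ± 10.2, 29.4% ± 30 and 22.6% ± 9.8. In both genes FGF1 did not overlap with control, while 1 DSS library did (66.3% for Clip1 in DSS 3, 72.4% for Wdr13 in DSS 1). The group total of Clip1 was low, 4.6 ± 0.8 FPKM in control, 3.1 ± 2.5 in DSS and 2.9 ± 0.8 in FGF1. In DSS 3 it was 1.2 FPKM, near the filter of 1 FPKM.

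**Figure D3:**
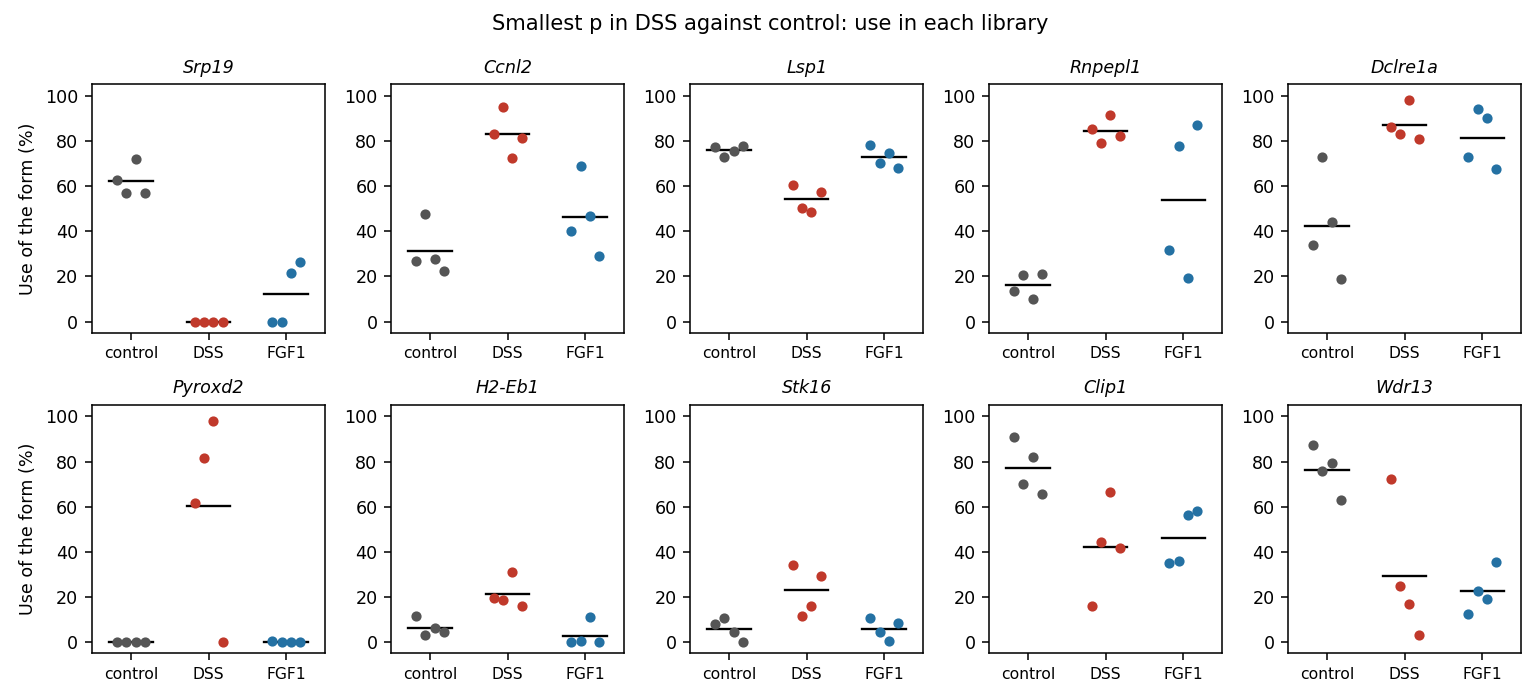
Use (%) in each library of the form with the smallest p in 10 genes, DSS against control; points are libraries, coloured by group, and lines are means. None was called; in Srp19, Ccnl2, Lsp1, Rnpepl1, Dclre1a, H2-Eb1 and Stk16 the DSS and control libraries do not overlap.

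In FGF1 against DSS the smallest p belonged to Lin37, a subunit of the DREAM complex that represses cell cycle genes. Its 109-base exon had a use of 1.0%, 11.4%, 4.1% and 7.3% in control, 15.0%, 2.6%, 2.0% and 3.4% in DSS, and 31.3%, 21.7%, 29.0% and 22.4% in FGF1. All FGF1 libraries lay above all others, at group totals of 11.4 ± 1.8, 11.8 ± 1.5 and 11.2 ± 0.7 FPKM. The log2 ratio was 1.66 ± 0.37 against DSS (limma adjusted p = 0.471) and 1.62 ± 0.37 against control (0.563).

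Mapk7 encodes ERK5, a kinase that acts below growth factor receptors. Its protein-coding form with a 358-base exon was listed at 0 in 3 control libraries and at 48.7% in control 4, at 0 in all DSS libraries, and at 52.8%, 40%, 39.2% and 30.7% in FGF1. FGF1 and DSS did not overlap, but control 4 lay within the range of FGF1. The log2 ratio in FGF1 against DSS was 1.95 ± 0.49 (limma adjusted p = 0.524), at totals of 3.5 ± 0.5 to 4.3 ± 1.4 FPKM.

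Wdr45, a protein of autophagosome formation, differs by the 42 bases shown above. The longer form had a use of 100%, 37.2%, 42.0% and 41.4% in control, 54.1%, 37.7%, 41.4% and 60.2% in DSS, and 85.4%, 100%, 100% and 100% in FGF1. Control 1 resembled FGF1 and not its own group. The log2 ratio in FGF1 against DSS was 3.34 ± 0.87 with a limma adjusted p of 0.534, which became 0.0466 without control 1 and ran up to 0.910 over its 28 alternatives. The ratio was 1.57 against all other listed Wdr45 transcripts and 0.60 with the values of the event rows.

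Cop1, a ubiquitin ligase, had its longer form (24 bases) lower in 3 of 4 DSS libraries. The use was 92.3%, 95.5%, 100% and 92.8% in control, 69.5%, 65.8%, 69.1% and 100% in DSS, and 100%, 100%, 94.9% and 100% in FGF1. DSS 4 stood with the other groups. The log2 ratio in FGF1 against DSS was 1.85 ± 0.51 (limma adjusted p = 0.579), 1.16 against all other listed Cop1 transcripts and 0.07 with the values of the event rows.

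Zkscan3, a zinc finger repressor of autophagy genes, had the 478-base form at 84.6%, 83.2%, 36.0% and 72.5% in DSS and at 5.8%, 1.5%, 0.4% and 40.4% in FGF1. The groups overlapped through DSS 3 and FGF1 4, and control ranged from 34.7% to 80.1%. Most of the remainder was a 475-base form whose acceptor lies 3 bases downstream, with 64.9%, 48.4%, 15.8% and 17.1% in control, 15.1%, 14.6%, 63.5% and 26.8% in DSS, and 94.2%, 98.5%, 99.2% and 57.0% in FGF1. In Armc10 and Phc2, a mitochondrial armadillo protein and a polycomb subunit, the longer form was the major one everywhere. Armc10 had a mean use of 94.6% ± 8.1 in the control libraries, 98.4% ± 2.1 in DSS and 89.9% ± 3.9 in FGF1, and Phc2 had 93.6% ± 3.6, 97.2% ± 3.2 and 88.2% ± 0.7. Their log2 ratios in FGF1 against DSS, −1.91 ± 0.50 and −1.48 ± 0.41, became 0.08 and 0.90 with the values of the event rows, and that of Phc2 was −0.79 without DSS 3 and DSS 4. The group total of Armc10 was 9.6 ± 5.4 FPKM in control, 18.8 ± 4.7 in DSS and 5.7 ± 0.6 in FGF1. With the pseudocount, the ratio of Armc10 also carries this difference in totals.

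In FGF1 against control, H2-T3, a non-classical MHC class I gene of the gut epithelium, followed Srp19. Its longer form (132 bases) had a use of 94.9%, 99.5%, 100% and 100% in control, 90.3%, 94.7%, 94.8% and 86.9% in DSS, and 81.0%, 95.7%, 82.0% and 83.0% in FGF1. FGF1 2 reached above control 1, so the groups overlapped. FGF1 against control had a log2 ratio of −2.07 ± 0.46 (limma adjusted p = 0.556), and H2 relatives may share its reads.

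Tardbp encodes TDP-43, an RNA-binding protein that regulates splicing. The 127-base form had a use of 21.5%, 29.1%, 21.7% and 29.8% in control, 54.6%, 29.7%, 88.9% and 18.1% in DSS, and 67.5%, 68.9%, 80.4% and 89.1% in FGF1. FGF1 lay above control in every library, and DSS spread over both. FGF1 against control had a log2 ratio of 2.91 ± 0.80 (limma adjusted p = 0.799).

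Il17rc, a subunit of the receptor for interleukin 17, had small and tight values. Its longer form (27 bases) had a use of 93.8%, 98.1%, 97.8% and 96.0% in control, 93.3%, 93.6%, 94.1% and 94.2% in DSS, and 92.5%, 90.2%, 90.2% and 92.1% in FGF1. FGF1 lay below both other groups without overlap, at a log2 ratio of −0.93 ± 0.26 against control (limma adjusted p = 0.815), and −0.28 against all other listed Il17rc transcripts.

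Gas5, a noncoding host of small nucleolar RNAs, and Taf1d, a factor of RNA polymerase I, had mean group totals that differed between groups along with mean use. The 345-base form of Gas5 had a mean use of 8.1% ± 1.0 in the control libraries, 3.9% ± 1.5 in DSS and 3.3% ± 1.6 in FGF1. Its group total was 46.4 ± 5.3, 79.0 ± 30.1 and 67.3 ± 6.0 FPKM. The Gas5 totals in DSS (41.6 to 111 FPKM) overlapped with those in control (42.0 to 54.1). For the 949-base form of Taf1d use was 23.3% ± 13.5, 29.5% ± 10.8 and 57.5% ± 13.1, at totals of 15.3 ± 7.0, 11.5 ± 3.1 and 4.7 ± 1.5 FPKM. The log2 ratio of Taf1d in FGF1 against control, 1.86 ± 0.46, became −0.14 against all other listed transcripts of the gene. Zfp523, a zinc finger gene, had a use of 100% in each FGF1 library and 80.5% to 100% in control. Its group total was 3.1 ± 0.9 FPKM in control and 5.0 ± 0.9 in FGF1, and at 100% use the ratio follows the total alone. Its log2 ratio in FGF1 against control, 1.09 ± 0.29, became −1.07 with the values of the event rows.

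**Figure D4:**
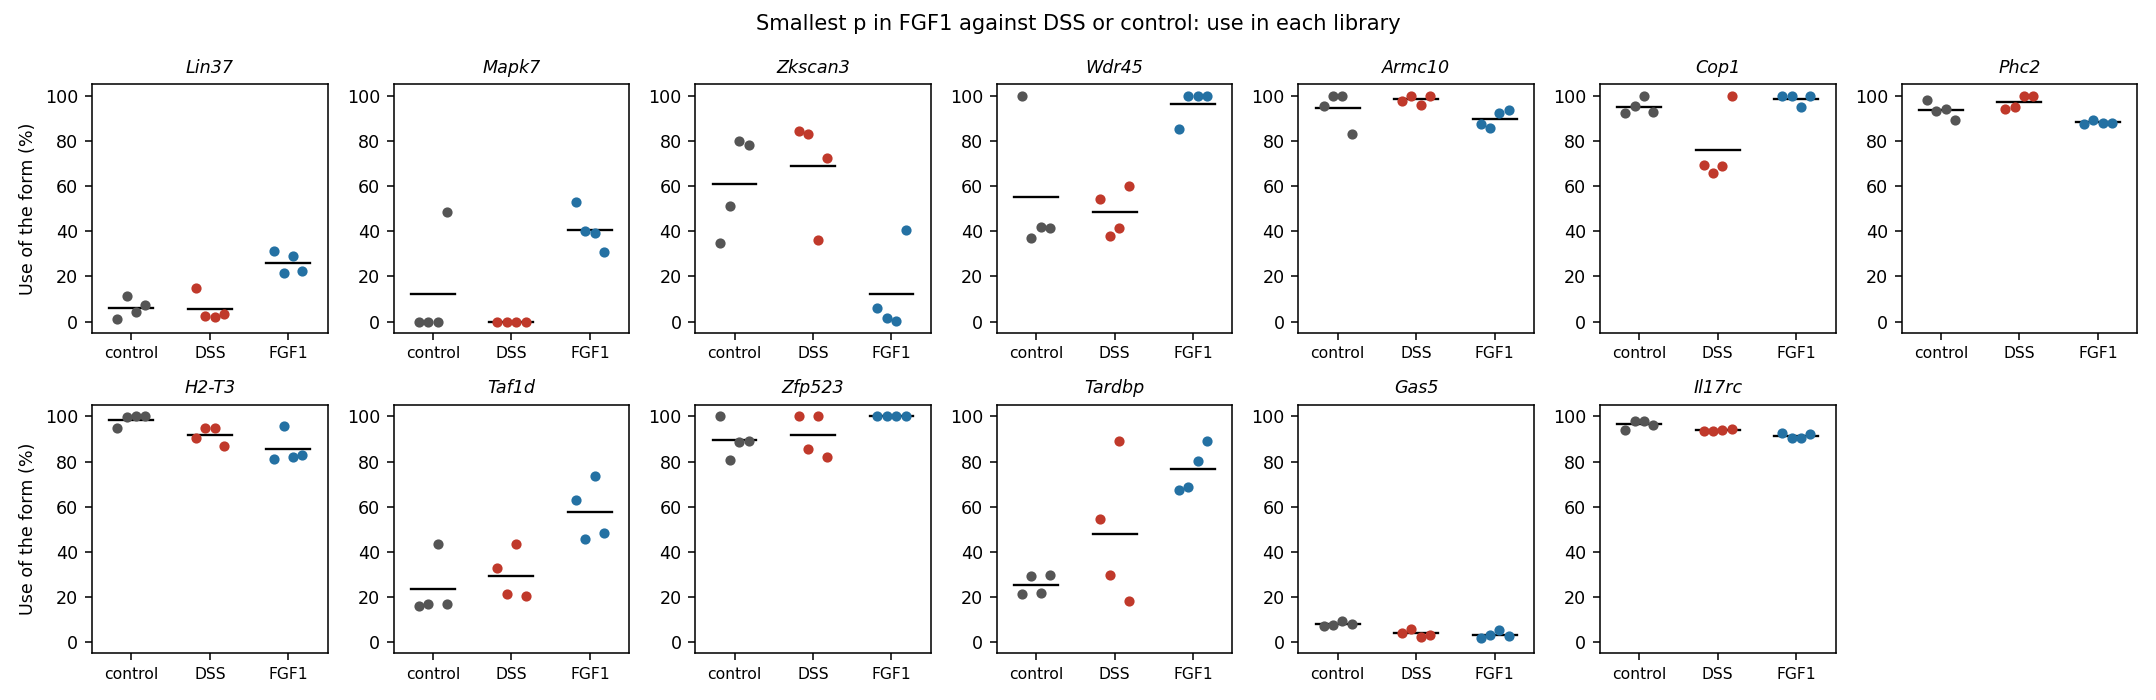
Use (%) in each library for the 13 further genes with the smallest p in FGF1 against DSS or FGF1 against control; points are libraries and lines are means. The FGF1 libraries of Lin37, Taf1d and Il17rc lie apart from both other groups, and those of Phc2 meet control at 89.2% (FGF1 2 and control 4). Control 1 of Wdr45 and control 4 of Mapk7 lie with FGF1.

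The most abundant pairs with both forms at a mean use of 20% to 80% were those of Rpsa, Rpl10a, Gstp1 and Gsto1. Rpsa, a protein of the small ribosomal subunit, had group totals of 472 ± 62 FPKM in the control libraries, 680 ± 182 in DSS and 622 ± 52 in FGF1. Its decay form, with the 73 bases shown above, had a mean use of 35.4% ± 4.7, 38.6% ± 6.3 and 37.3% ± 3.4. The groups overlapped. Ribosomal protein genes have many processed copies in the genome, so reads of Rpsa, Rpl10a, Rplp0 and Rpl13a may be split.

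Gsto1, a glutathione transferase, was listed in 2 states. The form extended by the 25 bases shown above belongs to a decay transcript. Its use was 11.9%, 69.5%, 2.0% and 2.2% in control, 68.3%, 71.1%, 69.7% and 72.1% in DSS, and 1.1%, 70.0%, 10.3% and 4.7% in FGF1. All DSS libraries were in the high state, together with control 2 and FGF1 2. The log2 ratio in DSS against control was 4.33 ± 1.61 (limma adjusted p = 0.501). Totals ranged from 264 to 499 FPKM, so the states occurred at high abundance.

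Rpl10a, a protein of the large ribosomal subunit, and Gstp1, another glutathione transferase, also switched in single libraries. The longer form of Rpl10a had a use of 26.6% to 34.8% in 10 libraries but 1.9% in DSS 2 and 2.1% in FGF1 4. That of Gstp1 ranged from 20.8% to 70.0%, with both low and high libraries in every group.

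FGF signalling was sparsely covered. Of its 40 genes, 8 had an alternative exon end group and 4 were tested, with 0 called. Fgfr1 had a group that did not reach the filter, and Fgfr2 and Fgfr3 had none. Fgfrl1 in FGF1 against DSS and Map2k2 in FGF1 against control had an unadjusted limma p under 0.05. Over all event families 6.17% and 5.16% of forms did in these comparisons. The median absolute difference of the 4 forms was 7.17 points in DSS against control, 19.6 in FGF1 against DSS and 13.6 in FGF1 against control, beside 5.70, 5.54 and 4.77 over all tested forms. A median of 4 forms rests on few values. The SD within DSS was 33.9 points for Map2k2 and 28.2 for Rps6ka1, and 7.9 for Hras.

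Map2k2 encodes MEK2, the kinase above ERK. Its longer form (132 bases, in a decay transcript) had a use of 65.6%, 63.3%, 70.6% and 69.9% in control, 71.6%, 66.3%, 0% and 64.6% in DSS, and 0.3%, 0.4%, 72.2% and 0.2% in FGF1. Each library was either between 63.3% and 72.2% or at most at 0.4%, and the groups overlapped through DSS 3 and FGF1 3. The log2 ratio in FGF1 against control was −5.15 ± 1.88 (limma adjusted p = 0.892). Rps6ka1, a kinase below ERK, ranged from 29.7% to 100% for its longer form (33 bases), and Hras, the small GTPase, from 18.1% to 36.4% for its decay form (50 bases).

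Epithelial lists gave few tested genes. Of 35 goblet and secretory cell genes 2 were tested, Hgfac and Slc12a8, and Muc2 had no group. Of 40 absorptive colonocyte genes only Cdhr5, a cadherin of the brush border, was tested. Its longer form (282 bases) varied little, at 86.0% ± 1.0 in control, 84.7% ± 2.9 in DSS and 85.8% ± 1.8 in FGF1, with totals of 183 to 438 FPKM. For Hgfac the longer form had 16.3% ± 6.6, 19.8% ± 3.2 and 20.6% ± 2.3, and for Slc12a8 19.9% ± 8.1, 25.5% ± 7.7 and 17.6% ± 6.2.

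Among 39 junction and polarity genes 8 were tested with 12 forms, 0 of them called. Tjp1, which encodes the tight junction protein ZO-1, had 2 forms at an unadjusted limma p under 0.05 in DSS against control. Such a p occurred in 8.3% of forms over all event families. Dsp, the desmosomal plaque protein, had its longer form (1797 bases) at 61.0% ± 8.2 in control, 52.4% ± 3.8 in DSS and 55.7% ± 5.3 in FGF1. Cgn, a tight junction adaptor, ranged from 6.2% to 49.2% for its longer form (24 bases), with low and high libraries in every group.

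In Epcam, the epithelial adhesion molecule, use differed along with the group total. Its group total was 3.0, 611, 4.1 and 4.0 FPKM in control, 310.5, 4.8, 3.3 and 463 in DSS, and 3.9, 3.9, 3.4 and 485.5 in FGF1. The longer form had a use of 98.1% to 99.2% in the 4 libraries with high totals and 22.2% to 51.1% in the other 8. High totals occurred in each group, and their cause was not tested.

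Actin and smooth muscle genes were tested in 4 of 43 cases, with 6 forms and 0 calls. At an unadjusted limma p under 0.05 stood 1 Mprip form in DSS against control and the Palld form in FGF1 against DSS. Over all event families 8.3% and 6.17% of forms did in these comparisons. Myl6, a light chain of myosin, had its longer form (the 36 bases shown above) at 86.1% ± 1.8 in control, 83.1% ± 5.5 in DSS and 84.7% ± 0.4 in FGF1, at totals of 684 to 1148 FPKM. Mprip, a myosin phosphatase partner, had another form at 96.3% ± 5.6, 90.2% ± 12.1 and 92.5% ± 6.9. Palld, an actin scaffold, had 85.2% ± 3.6, 88.6% ± 13.8 and 92.0% ± 6.2 while its total was 41.0 ± 22.3, 10.9 ± 7.9 and 23.8 ± 16.0 FPKM. The log2 ratio of Palld in DSS against control was −0.38 ± 0.39, opposite in sign to its difference in mean use. The summed FPKM of 12 smooth muscle markers was 2341 to 7477 in control, 506 to 1792 in DSS and 1052 to 6779 in FGF1. When their mean log2 level was added to the model, 0 forms were called in each comparison. Of 40 matrix genes only Hspg2, the basement membrane proteoglycan perlecan, was tested, with its longer form at 16.6% ± 10.2, 6.4% ± 6.6 and 10.5% ± 8.1. Its log2 ratio in DSS against control was 0.43 ± 0.32, again opposite in sign to the difference in mean use.

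Splicing factors were the best covered list, with 24 of 76 genes and 43 forms tested and 0 called. Their median absolute differences were 4.43, 3.89 and 3.69 points in the 3 comparisons. At an unadjusted limma p under 0.05 stood 1 form in DSS against control (Luc7l), 1 in FGF1 against DSS (Hnrnpc) and 3 in FGF1 against control (Sf1 and Tardbp). Over all event families 8.3%, 6.17% and 5.16% of forms had such a p. The Hnrnpc pair of highest total, which differs by the 39 bases shown above, was not the form with that p. Its longer form had a mean use of 33.6% ± 5.8 in the control libraries, 30.6% ± 5.7 in DSS and 30.9% ± 4.3 in FGF1.

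Rbm39, a splicing regulator related to U2AF, had its longer form (18 bases) at 9.8%, 10.8%, 9.0% and 9.3% in control, 13.7%, 12%, 10.4% and 25.5% in DSS, and 46.0%, 11.1%, 11.3% and 10.8% in FGF1. DSS 4 and FGF1 1 stood above the other libraries. Srsf7, an SR protein, had its longest exon at 27.9% ± 7.4, 20.3% ± 8.6 and 24.6% ± 6.7.

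Translation genes were tested in 7 of 36 cases with 9 forms and 0 calls. Eif5 and Rpl13a were at an unadjusted limma p under 0.05 in DSS against control, beside 8.3% of forms over all event families. Rpl13a, of the large ribosomal subunit, had its longer form (16 bases, not in a protein-coding transcript) at 4.8% ± 1.4 in control, 12.8% ± 10.2 in DSS and 5.5% ± 0.6 in FGF1, and DSS 4 alone reached 27.8%. Rplp0, of the ribosomal stalk, was at 0% to 9.7% except for 39.2% in DSS 2 and 31.4% in FGF1 3. Eef1b2, an elongation factor subunit, ranged from 0% to 18.8% for its 543-base decay form.

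Genes of the secretory pathway and endoplasmic reticulum stress were tested in 4 of 49 cases with 0 calls. Copa, a coat protein of Golgi vesicles, had the form with the 27 bases shown above at 0.1%, 93.9%, 44.6% and 96.3% in control, 94.4%, 37.2%, 43.7% and 33.7% in DSS, and 47.1%, 47.7%, 0.2% and 8.9% in FGF1. Every group held libraries on both sides of 40%. Sel1l, of the degradation machinery of the endoplasmic reticulum, ranged from 15.5% to 100% for its longer form, with the highest value in DSS 3. Stx5a, a Golgi syntaxin, ranged from 0.4% to 60.2%.

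**Figure D5:**
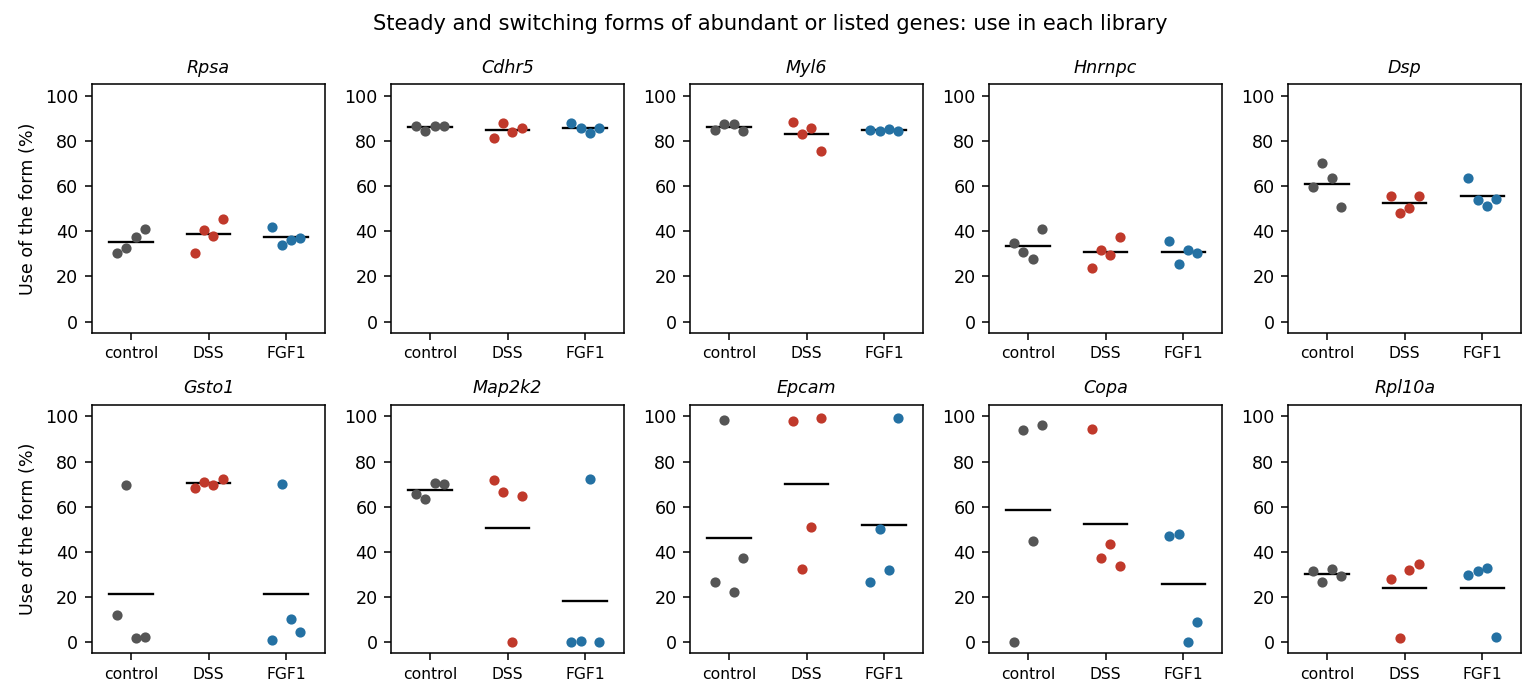
Use (%) in each library of 10 named forms, chosen after their values were seen to show steady forms (upper row) and forms with 2 or more levels within a group or single distant libraries (lower row); points are libraries and lines are means. Cdhr5 stays between 81.2% and 88.0%, whereas Gsto1 and Map2k2 take values near 70% or under 12% in libraries of the same group.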

How the data were processed

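The submitters' processing notes name build GRCm38 and edgeR, StringTie 1.3.4d, HISAT2 2.0.4 and cutadapt 1.9, without their roles. The authors deposited, for each event row and library, the FPKM of its transcript or 0. A transcript's FPKM was taken as the highest value over its rows, because 16.7% of alternative exon end values were 0 while the transcript had an FPKM. Labels put 4 libraries in each group.

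Forms were tested with limma 3.58.1 in R 4.3.3 (two-sided, trend on the mean log2 group total, all 12 libraries in a single model) on log2(form FPKM + 1) − log2(rest of group FPKM + 1). With this pseudocount of 1, ratios shrink toward 0 where totals are low, and where totals differ a ratio can have the opposite sign to the difference in use. Groups needed at least 1 FPKM in all 12 libraries, and forms a mean use of 5% to 95%. P-values were adjusted by Benjamini-Hochberg over 31057 forms of all families. The script was tested on simulated data. Exons were matched to GENCODE vM21 (17030 of 17169 transcript and form pairs), and tables were made with Python 3.11.15 and pandas 2.3.3.

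Named forms are the 10 genes with the smallest p in each comparison, up to 3 tested genes of highest total from each gene list, and the 4 most abundant balanced groups. Members, lists and rules were chosen with earlier results of these data known. Alternatives covered pseudocounts, filters, denominator, scaling, a smooth muscle covariate, a replicate block and libraries left out. The values of the event rows in place of transcript values were added after seeing the data.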

Additional observations from a re-analysis of the deposited data

Results flagged for a closer look

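Libraries that stood far from the other 3 of their group were looked for among the named forms, in 147 sets of 4 values. A library was picked where its gap to the nearest value exceeded Dixon's 95% critical share of the group's range. The critical value picks about 1 in 20 sets of independent, normally distributed values, and 25 were picked. Use is bounded at 0% and 100%, the forms were selected, and Pyroxd2 entered with more than 1 form of the same group. The 25 are therefore a list to look at and cannot show an excess over chance. Values at 0% or 100% in the other libraries make small gaps count.

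Some of these libraries lay within the range of another group, and others lay between or outside the groups. Wdr45 was at 100% in control 1, against 37.2% to 42.0% in the other controls, and at 85.4% in FGF1 1. Mapk7 was at 48.7% in control 4. Cop1 was at 100% in DSS 4 and 94.9% in FGF1 3. Taf1d was at 43.6% in control 3, and Zkscan3 at 40.4% in FGF1 4. H2-T3 was at 94.9% in control 1 and 95.7% in FGF1 2. H2-Eb1 was at 11% in FGF1 3, and Lin37 at 15.0% in DSS 1.

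Others switched at high abundance. Gsto1 was at 69.5% in control 2 and 70.0% in FGF1 2. Map2k2 was at 0% in DSS 3 and 72.2% in FGF1 3. Gstp1 was at 56.6% in control 2, Rpl10a at 2.1% in FGF1 4, Rbm39 at 46.0% in FGF1 1 and Copa at 94.4% in DSS 1. Rplp0 was at 39.2% in DSS 2 and 31.4% in FGF1 3, and Eef1b2 at 13.9% in DSS 1.

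The remaining gaps were small in points. Cdhr5 was at 84.5% in control 2, beside 86.5% to 86.6%. In FGF1 1, Pyroxd2 had 0.5% for the 112-base form and 99.5% for the 94-base form.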

How the results depend on the processing

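The count of 0 forms called changed as follows. In DSS against control it was 26 of 4902 without a filter on low values (0.53%, all families 0.552%), 19 of them higher in DSS. With 1 FPKM in at least 4 libraries it was 6 of 2569 (0.234%, 0.15%), 4 of them higher. Only the 8 libraries compared gave 2, Rnpepl1 and Srp19 (0.0998%, 0.103%). Without DSS 3 and DSS 4 it was 3, in Pyroxd2 and Trpm6 (0.15%, 0.0741%). Srp19 was the 1 call with use as a fraction (0.0499%, 0.0161%) and with the event row values (0.0499%, 0.0129%). Without control 3 and FGF1 3 it was 1 too, Srp19 (0.0499%, 0.0676%). Leaving out each library gave 0 to 2 (Srp19, or Pyroxd2 without DSS 4). The share was 0.0998% without DSS 4, beside 0.00644% over all families. Where Srp19 was called it was 0.0499%, beside 0.00966% to 0.0515%. In FGF1 against DSS it was 4 without DSS 3 and DSS 4 (Cop1, Pyroxd2 and Trpm6), 0.2% beside 0.0805% over all families. With each library left out it was 0 to 2. These were Wdr45 without control 1 (0.0499%, all families 0.0354%) and Pyroxd2 without DSS 4 (0.0998%, 0.00644%). In FGF1 against control it was 4 without a filter (Kifc2, Map4k1 and Mr1), 0.0816% beside 0.0177% over all families. With 1 FPKM in at least 4 libraries it was 3 (Kifc2 and Mr1), 0.117% beside 0.0425%. With each library left out it was 0 to 1 (Wdr45 without control 1, 0.0499% beside 0.0386%). The other alternatives gave 0.

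Of 820 recomputed log2 ratios of named forms, 22 were called and 6 reversed. Against all other transcripts of the gene, Ccnl2 gave −0.32 in DSS against control and 1.09 in FGF1 against DSS, and Taf1d −0.14 in FGF1 against control. With event row values, Armc10 gave 0.081, Phc2 0.90 and Zfp523 −1.07. The cause was not tested. With a pseudocount of 0.1 FPKM, 18 of the ratios grew by over 1.5 times. Of 2398 differences of mean use, 29 moved by over 1 SD.

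Same-numbered libraries had correlations of deviations from −0.067 to 0.0089, so the numbers were not taken as pairs. With a replicate block, 0 forms were called in each comparison, with 138, 132 and 116 at an unadjusted p under 0.05.

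Unknown depth limits all values. Counting error enters the p-values only through the spread between libraries, with no weight for the depth of each library.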
